A study of Rattus norvegicus with 30 samples.

Results

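The olfactory bulb is the first relay of smell. Axons of the olfactory nerve end in its glomeruli on mitral and tufted cells, which are glutamatergic and project to olfactory cortex, and periglomerular cells around the glomeruli and granule cells in the deep layers are local GABAergic interneurons that are renewed throughout life by immature neurons migrating from the ventricle wall. Expression of 10 genes of these neurons was examined rat by rat in brain RNA. A gene was taken when its symbol stood in the gene table, and 9 of the 10 did, out of 17134 genes in all. The 4 mitral and tufted cell genes were Cdhr1, Doc2g, Eomes and Tbx21. The 5 periglomerular and granule cell genes were Th, Tshz1, Dcx, Pbx3 and Synpr. Sp8 was not matched by symbol and is not analysed here.

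The RNA came from 30 male Sprague Dawley rats on a normal diet, 10 in each of 3 genotypes. Wild-type (WT) rats express rat amylin in the pancreas. HIP rats carry, beside their own rat amylin, human amylin that is made in the β-cells of the pancreas, and they develop type 2 diabetes, and amylin knockout (AKO) rats lack rat amylin. HIP and WT rats were aged 15 to 16 months, and the age of the sequenced AKO rats is not stated separately. Iapp, the amylin gene itself, was not matched by symbol and is not analysed here, so the genotype labels were not checked with it. The sample annotation names the tissue frontal cortex, and the study also calls it cerebral cortex or hippocampus. None of these names includes the olfactory bulb.

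Values are normalized counts, that is, read counts scaled by the authors to make rats comparable. Their total was 15.4 to 18.0 M (mega) per rat, which corresponds to an estimated 12.9 to 23.6 M reads on genes. In 29 of 30 rats the 11 neocortical excitatory neuron genes had a mean of 9.73 or more on the log2(normalized count + 1) scale. The exception was WT rat 10RT43, with a mean of 7.36 and with cerebellar genes at a mean of 12.4. HIP rat 12RT23 had cerebellar genes at 9.27, and no other rat exceeded 5.29. HIP rat 10RT46 had pineal gland genes at 10.2, and no other rat exceeded 2.73. HIP rat 10RT46 also had choroid plexus genes at 9.26 and AKO rat 7AKO19 had them at 7.04, and no other rat exceeded 4.87. These 4 rats stand apart from the rest in these lists, and the correlations and comparisons are given with and without them. Striatal projection neuron genes also differed between rats, with a median of 8.07. Their mean was 6.31 in 10RT43 and reached 10.3 in WT rat 10RT55 and AKO rat 4KAH27. It was 9.78 in AKO rat 4KAH35 and 9.28 in AKO rat 7AKO28. Striatal genes were not used to set rats apart. Because whole tissue was sequenced, fewer cells of a type and less RNA per cell cannot be told apart.

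Sequences upstream of the genes give the context of their transcription. T-box factors such as Eomes and Tbx21 bind a T-box element (GGTGTGA), many homeodomain factors bind TAATTA or TAATTG, basic helix-loop-helix factors bind an E-box (CAGCTG) and CREB binds a cAMP response element (TGACGTCA). The 250 bases before the annotated start were read from RefSeq (rat assembly GRCr8) and matched 8 of the 9 genes, with none for Pbx3. The 4 mitral and tufted cell genes and Th are shown, since the rat-to-rat pattern described next is widest in them, with motif matches on either strand in capitals.
Cdhr1 (chr16:12883580-12883829, - strand): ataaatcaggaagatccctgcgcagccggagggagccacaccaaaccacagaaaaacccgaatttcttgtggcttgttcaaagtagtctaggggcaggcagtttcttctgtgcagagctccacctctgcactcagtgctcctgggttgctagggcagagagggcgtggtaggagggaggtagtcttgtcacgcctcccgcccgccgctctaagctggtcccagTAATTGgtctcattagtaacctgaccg
Doc2g (chr1:210725578-210725827, + strand): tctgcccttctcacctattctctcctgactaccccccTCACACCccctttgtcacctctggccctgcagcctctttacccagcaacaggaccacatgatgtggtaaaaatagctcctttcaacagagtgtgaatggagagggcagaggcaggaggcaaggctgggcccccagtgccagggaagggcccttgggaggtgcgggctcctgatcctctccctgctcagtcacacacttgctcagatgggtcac
Eomes (chr8:127058965-127059214, + strand): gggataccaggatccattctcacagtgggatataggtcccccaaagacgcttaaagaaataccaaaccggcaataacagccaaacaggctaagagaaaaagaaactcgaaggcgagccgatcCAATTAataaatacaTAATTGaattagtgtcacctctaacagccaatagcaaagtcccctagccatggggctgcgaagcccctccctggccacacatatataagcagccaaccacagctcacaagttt
Tbx21 (chr10:82595254-82595503, - strand): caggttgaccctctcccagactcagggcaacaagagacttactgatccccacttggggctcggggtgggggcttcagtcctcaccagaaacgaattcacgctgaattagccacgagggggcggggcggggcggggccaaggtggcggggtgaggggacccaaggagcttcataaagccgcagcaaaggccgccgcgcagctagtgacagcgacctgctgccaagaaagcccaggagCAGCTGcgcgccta
Th (chr1:207508219-207508468, - strand): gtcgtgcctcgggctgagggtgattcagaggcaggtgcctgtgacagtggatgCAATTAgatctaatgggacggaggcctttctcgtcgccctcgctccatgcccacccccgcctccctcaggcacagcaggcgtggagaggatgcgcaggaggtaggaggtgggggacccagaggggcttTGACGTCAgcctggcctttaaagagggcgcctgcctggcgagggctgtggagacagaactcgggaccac
TAATTG or its complement stood before the starts of Cdhr1, Eomes, Th and Tshz1, and 7.31% of 33469 rat promoter windows of this length hold it. The T-box element was found before Doc2g, against 3.22% of windows, the E-box before Tbx21, against 12% of windows, and TAATTA before Dcx, against 4.86%. Th holds the cAMP response element 69 bases before its start, and 1.59% of windows hold one. Matched letters describe these windows, and binding was not measured.

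The mitral and tufted cell genes were high in 10 of the 30 rats and far lower in most of the others, in all 3 genotypes. Tbx21, a T-box transcription factor of mitral and tufted cells, divided the rats most sharply. It ranged from 0 to 265 with a median of 1.99 in WT rats, from 0 to 147.3 with a median of 2.39 in HIP rats and from 0 to 222 with a median of 6.31 in AKO rats. The widest gap between neighbouring rats lay between 6.54 in AKO rat 7AKO42 and 20.5 in AKO rat 6KAH99, a step of 1.51 on the log2 scale. The next widest step was 1.08. Above the gap were 3 WT, 3 HIP and 4 AKO rats, and below it 7 WT, 7 HIP and 6 AKO rats. Tbx21 was listed at 0 in 5 of the 20 rats below the gap, and a 0 allows up to 3 reads. The division was read from the values themselves, so the rats above and below it are described and not tested against each other.

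Cdhr1, a cadherin-related protein of mitral cells that is also made in photoreceptors, had the widest range among the 8 genes detected in every rat, 529-fold. That range rests on 15.5 in 10RT43, a rat with cerebellar genes, and the next lowest rat, 10RT38, had 88.7. Eomes spanned 320-fold and had the larger SD over 30 rats on the log2 scale, 2.49 against 2.32. Cdhr1 ranged from 15.5 to 8224 in WT rats (median 157.6), from 98.4 to 4707 in HIP rats (median 371) and from 123 to 7705 in AKO rats (median 704). Its 10 highest rats were the 10 rats above the Tbx21 gap, with 1512 or more, and the highest of the other 20 reached 832. Doc2g, a C2 domain protein of the synaptotagmin-like Doc2 family, ranged from 44.2 to 1086 in WT rats (median 105.4), from 27.9 to 576 in HIP rats (median 72.0) and from 19.2 to 839 in AKO rats (median 160). The 10 rats held 160 or more, and AKO rat 6AKO52, with 202, was the 1 other rat among the 10 highest.

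Eomes, also called Tbr2, a T-box factor of mitral and tufted cells and of unipolar brush cells in the cerebellum, ranged from 1.91 to 484 in WT rats (median 8.51), from 4.19 to 281 in HIP rats (median 12.7) and from 1.63 to 523 in AKO rats (median 10.6). The 10 rats held 52.5 or more. Of the other 20, WT rat 10RT43 had 197 and HIP rat 12RT23 had 73.2, and the rest had 13.6 or less. Of the other mitral genes, Tbx21 was at 2.39 and 2.32 in these rats, Doc2g at 44.2 and 27.9 and Cdhr1 at 15.5 and 203, all below the 10 rats above the gap. They were also the 2 rats with cerebellar genes, and Gabra6, a GABA-A receptor subunit of cerebellar granule cells, was at 17979 in 10RT43 and 1564 in 12RT23 against 16.5 or less in every other rat. The part of cerebellar RNA in their Eomes values was not tested.

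**Figure D1:**
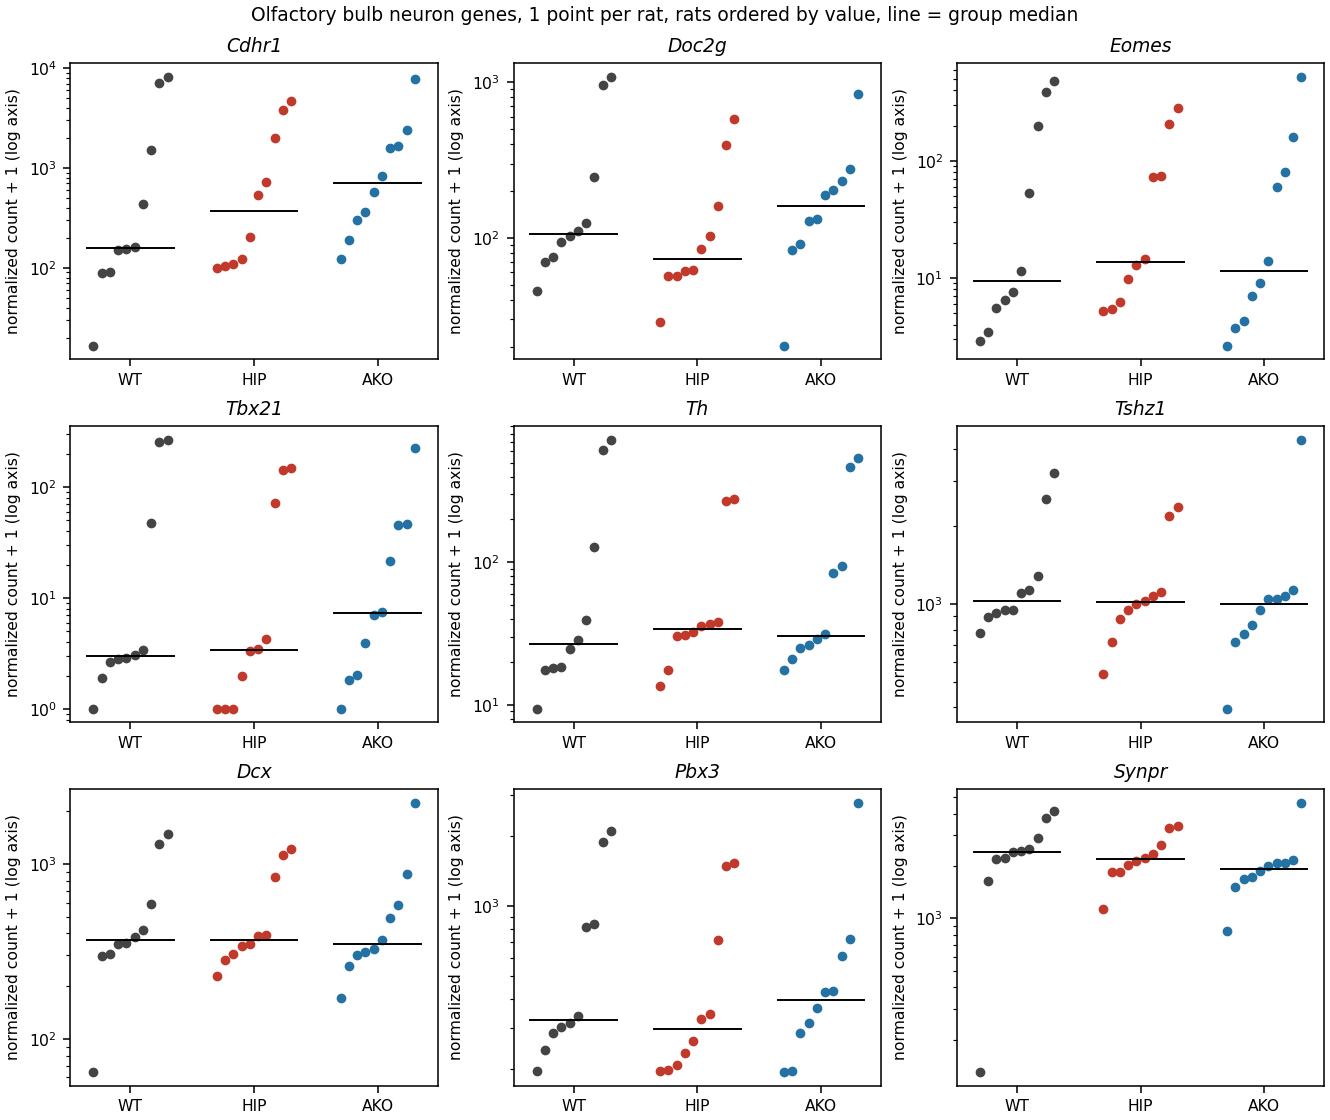
Normalized count + 1 of the 9 genes (log axis) in WT, HIP and AKO rats, with 1 point per rat placed in order of value and a line at the group median. In the 4 mitral and tufted cell genes and Th, a few rats of every genotype rise far above the median. In Tbx21, 3 WT, 3 HIP and 4 AKO rats lie at 20.5 or more and all others at 6.54 or less. Tshz1 and Synpr separate the rats less.

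Of the 5 periglomerular and granule cell genes, Th, Dcx and Pbx3 had at least 9 of their 10 highest values in the rats above the Tbx21 gap. From the lowest to the highest of the 30 rats they spanned 86.4-fold (Th), 35.3-fold (Dcx) and 14.4-fold (Pbx3), against 56.6-fold for Doc2g and 529-fold for Cdhr1. Th, tyrosine hydroxylase, is the rate-limiting enzyme of dopamine synthesis and marks dopaminergic periglomerular cells in the bulb. It ranged from 8.37 to 723 in WT rats (median 25.7), from 12.6 to 276 in HIP rats (median 33.1) and from 16.5 to 541 in AKO rats (median 29.2). The rats above the Tbx21 gap held 37.2 or more and the other 20 held 38.7 or less, so the 2 ranges met at a single rat, HIP 10RT37.

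Dcx, doublecortin, a microtubule-binding protein of migrating neurons, ranged from 63.4 to 1479 in WT rats (median 367), from 227 to 1211 in HIP rats (median 367) and from 170 to 2234 in AKO rats (median 346). Like Cdhr1, it had its 10 highest values in the 10 rats above the Tbx21 gap, with 490 or more against 418 or less. Pbx3, a TALE homeodomain factor, ranged from 194 to 2109 in WT rats (median 325), from 195 to 1540 in HIP rats (median 297) and from 193 to 2783 in AKO rats (median 397). The 10 rats held 428 or more, and 10RT43, with 817, was the 1 other rat among the 10 highest.

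Tshz1, a zinc finger homeobox factor of granule cells, and Synpr, synaptoporin, a synaptic vesicle protein, separated the rats less. Tshz1 ranged from 772 to 3221 in WT rats (median 1032), from 536 to 2375 in HIP rats (median 1017) and from 394 to 4324 in AKO rats (median 999). Synpr ranged from 129 to 4117 in WT rats (median 2412), from 1125 to 3400 in HIP rats (median 2186) and from 838 to 4608 in AKO rats (median 1926). For each of these 2 genes, 7 of the 10 highest rats were among the 10 above the Tbx21 gap. Their medians show that both genes were well expressed in rats with little or no Tbx21.

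The 5 highest rats were WT rats 10RT50 and 10RT51, AKO rat 6AKO35 and HIP rats 10RT49 and 10RT53 for each of the 9 genes except Th, in differing order. In 10RT51, Cdhr1 was 8224, Eomes 484, Tbx21 265, Th 723 and Dcx 1304. In 6AKO35, Cdhr1 was 7705, Eomes 523, Tbx21 222, Th 541 and Dcx 2234. In 10RT53, the HIP rat with the most Cdhr1, Cdhr1 was 4707, Eomes 281, Tbx21 142.02, Th 269 and Dcx 1127. AKO rat 4KAH35, with Th at 469, came before both HIP rats in that gene and took the place of 10RT53.

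The other 5 rats above the gap were lower than each of these 5 in the genes other than Th. In Cdhr1, Tbx21 and Dcx they were above all 20 rats below the gap. In each of the other 6 genes at least 1 of them ranked below such a rat, as low as place 24 of 30 for 4KAH35 in Synpr. In HIP rat 10RT37, Cdhr1 was 2018, Doc2g 160, Eomes 72.0, Tbx21 70.8, Th 37.2 and Dcx 840. In WT rat 10RT57, Cdhr1 was 1512, Doc2g 246, Eomes 52.5, Tbx21 46.7, Th 126 and Dcx 586. Both had mitral genes well above their group medians, and only 10RT57 was also clearly above for Th. In AKO rat 7AKO28, Cdhr1 was 1580, Doc2g 230, Eomes 58.4, Tbx21 44.9, Th 83.2 and Dcx 490. In AKO rat 6KAH99, Cdhr1 was 1679, Doc2g 188, Eomes 78.9, Tbx21 20.5, Th 93.6 and Dcx 871. In AKO rat 4KAH35, Cdhr1 was 2387, Doc2g 277, Eomes 158.7, Tbx21 44.5, Th 469 and Dcx 582. Of these 6 genes, the 3 AKO rats differed most in Th.

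The overlap of the highest rats was set against all genes. A gene for which the 10 rats above the Tbx21 gap are exactly the 10 highest was rare: 28 of 17102 genes, or 0.164%, Cdhr1 and Dcx among them, and over all genes the median number of shared rats was 3. Tbx21 chose the rats and is left out of these counts. At least 8 shared rats were found for Cdhr1, Doc2g, Eomes, Th, Dcx and Pbx3, but not for Tshz1 and Synpr. The same held for 377 of the 17102 genes (2.2%).

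Other genes of the same cells were counted from lists of bulb cell types. Of 16 other interneuron genes, 12 shared at least 8 of their 10 highest rats with Tbx21, and 6 shared all 10: Dlx1, Dlx2 and Meis2, transcription factors of GABAergic neurons, Sall3, a zinc finger factor, Scgn, the calcium-binding protein secretagogin, and Trh, the precursor of thyrotropin-releasing hormone. Trh was 70.8 to 826 in the 10 rats and 48.6 or less in the others, and Scgn was 113 to 743 against 56.2 or less. Of 12 immature neuron and progenitor genes, 4 shared at least 8 rats (Sox4, Igfbpl1, Tubb3 and Draxin). Of 11 other mitral and tufted cell genes, only Shisa3 did, with 208 to 770 against 164 or less. Slc6a3, the dopamine transporter, was the 1 of 8 catecholamine genes that shared at least 8 rats. Slc6a3 reached 61.4 in 10RT51 but was only 1.12 in 7AKO28, also above the gap. Its highest value among the 20 rats below the gap was 2.91, in 10RT46.

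Genes of the olfactory nerve and of its ensheathing glia were also present. Omp, olfactory marker protein of olfactory sensory neurons, was 2451 in 4KAH35, 1137 in 6AKO35, 899 in 10RT50, 801 in 10RT51, 329 in 10RT53 and 163 in 10RT49. It fell to 9.75 in 6KAH99, and the 20 rats below the gap had 18.4 or less. Calcium-binding S100a5 was 356 in 4KAH35 and only 1.20 in 10RT37, also above the gap, and 3.63 or less in those 20 rats. The glial gene Prss56 was 9.75 to 88.6 in the 10 rats and 6.79 or less in the others. Of the 6 nerve genes, Omp and S100a5 shared at least 8 rats with Tbx21, and of the 7 ensheathing glia genes Frzb, Prss56 and Foxd3 did.

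**Figure D2:**
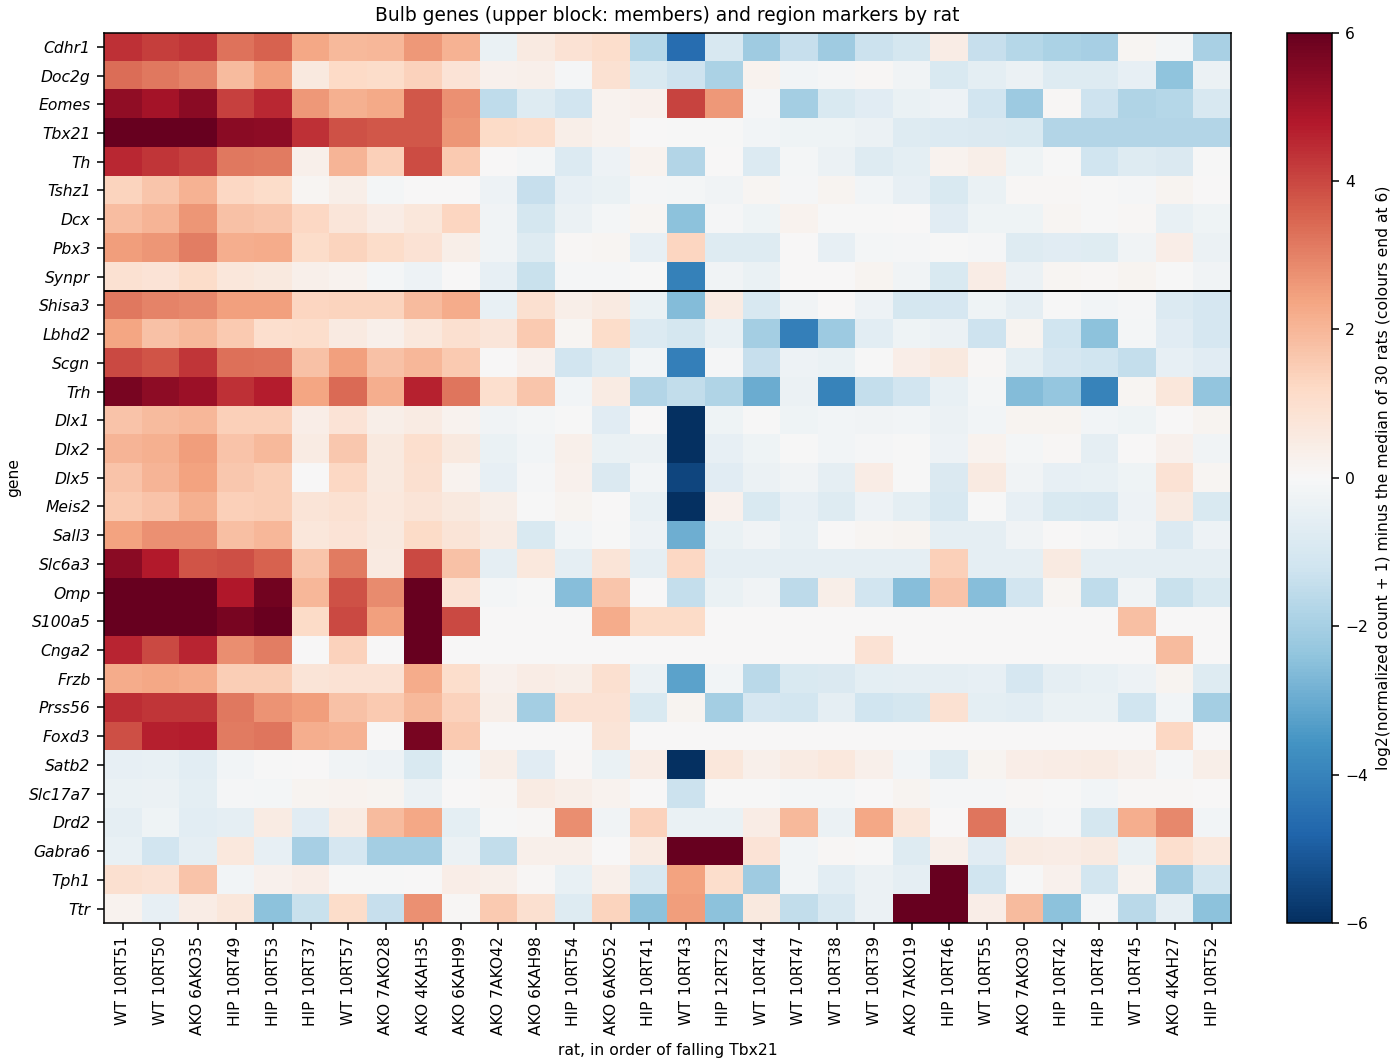
Log2(normalized count + 1) minus the median of 30 rats for the 9 genes (upper block) and for other bulb genes and markers of other brain regions (lower block), with the 30 rats in order of falling Tbx21. The first 10 columns are red for nearly all bulb genes, the Eomes row is also red in 10RT43 and 12RT23, and those 2 columns are red for the cerebellar gene Gabra6.

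Ratios to Cdhr1 compare the genes within a rat. Over the 10 rats, the ratio of a gene to Cdhr1 in the same rat had a range of 0.94 on the log2 scale for Eomes, 1.04 for Doc2g and 1.60 for Tbx21. For the interneuron genes other than Th it was 1.28 (Pbx3) to 1.72 (Synpr). For Th the range was 3.38, and it rested on 2 rats. It was 1.89 without 10RT37, 2.22 without 4KAH35 and 0.73 without both, which is below the range of every other gene but Doc2g (0.65) in the same 8 rats. Only the change of each ratio between rats is read here, not its size, since genes differ in length.

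The extremes of Th were AKO rat 4KAH35, with a Th to Cdhr1 ratio of 0.197, and HIP rat 10RT37, with 0.0189. Their Cdhr1 levels were close, 2387 and 2018. In the same 2 rats Omp was 2451 and 22.8. AKO rat 6KAH99 had the highest ratio of Dcx to Cdhr1, 0.519, and the lowest of Tbx21 to Cdhr1, 0.0128. Each of these is 1 rat, with no replicate.

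**Figure D3:**
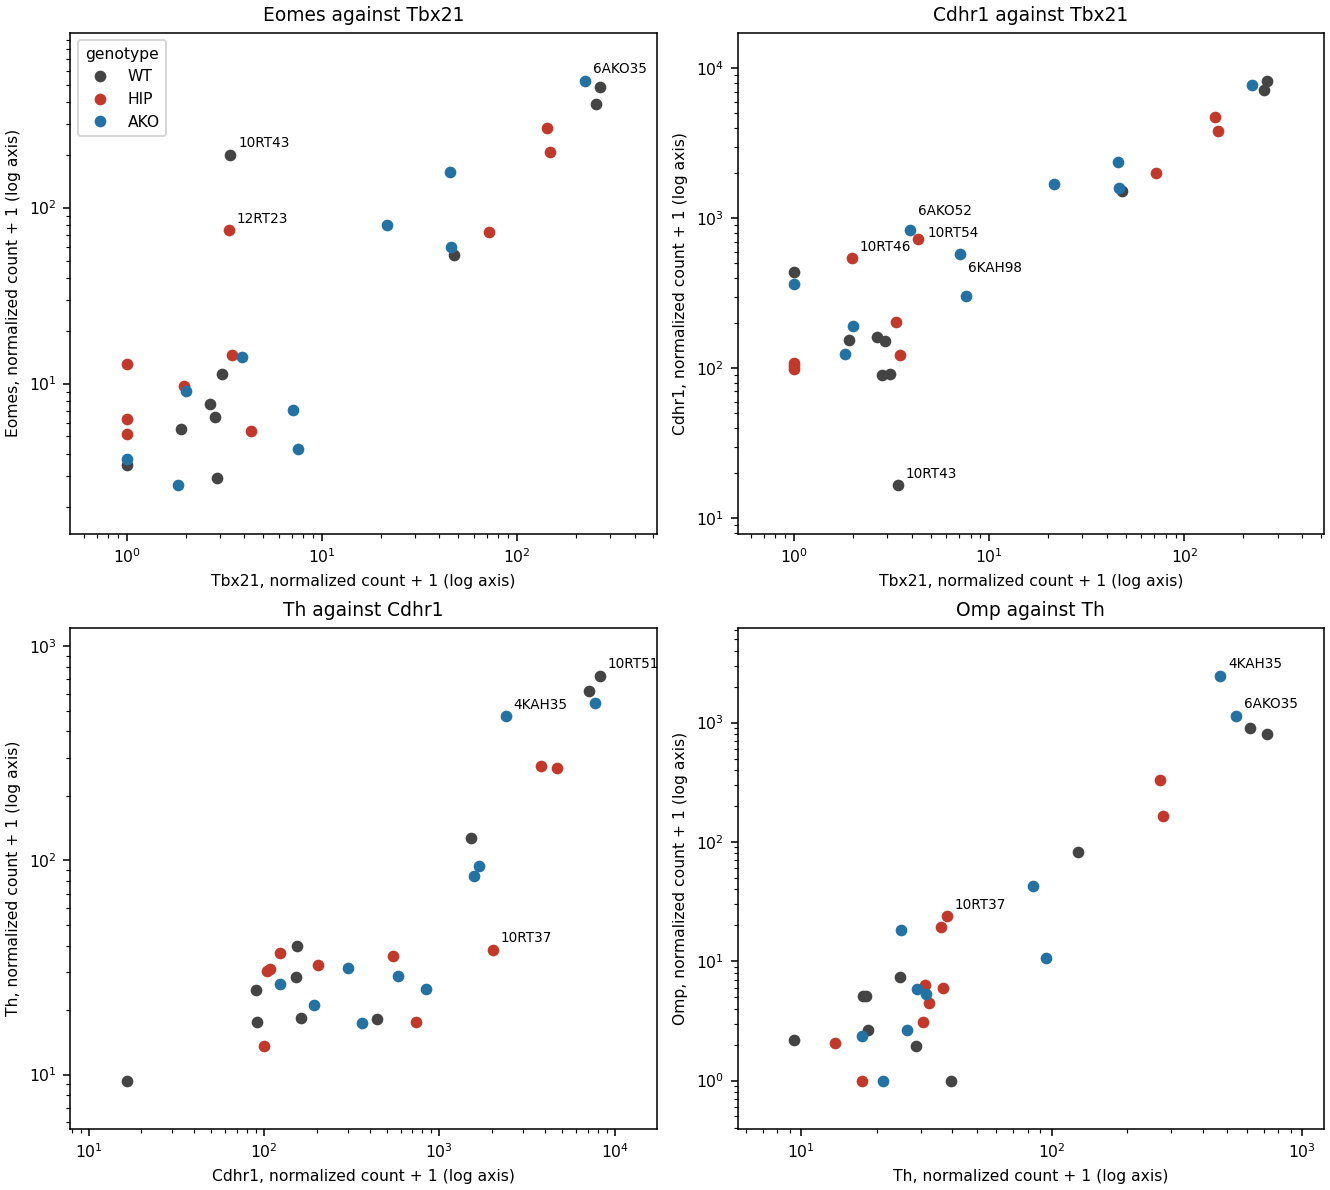
Normalized count + 1 (both axes log) of Eomes and Cdhr1 against Tbx21, Th against Cdhr1 and Omp against Th, 1 point per rat coloured by genotype. Eomes is high without Tbx21 in 10RT43 (197) and 12RT23 (73.2), and Th is high for its Cdhr1 in 4KAH35 (469) and low in 10RT37 (37.2).

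Because the rats fell into 2 sets at the Tbx21 gap, correlations were computed within each set, and none over all 30 rats. The set above the gap was itself split in the genes other than Th. In those genes, 10RT50, 10RT51, 6AKO35, 10RT49 and 10RT53 were each higher than all other rats of the set. Cdhr1 was 3814.5 or more in them and 2387 or less in the others. The correlations above the gap include this split, and whether the genes vary together within its parts was not tested. Among the 10 rats above the gap, Pearson's r of log2(normalized count + 1) was between 0.553 and 0.981 for the 36 pairs of genes, with a median of 0.888. With a two-sided permutation test, 33 pairs had an adjusted p-value under 0.05 (Benjamini-Hochberg over the 72 pairs of both sets), and 32 had with Spearman's rho. The share over pairs of all genes was not computed, and the rats were chosen by Tbx21. The counts of pairs called therefore do not show that these genes differ from others. The 6 pairs of mitral genes had r of 0.871 to 0.981, and 6 of 6 were called. Cdhr1 and Eomes were the closest pair (r = 0.981, permutation p = 2e-05, adjusted p = 0.00072, rho = 0.976, permutation p = 3e-05). Without the 2 rats farthest from the median Cdhr1, r was 0.969. Of the 20 pairs of a mitral with an interneuron gene 19 were called, and of the 10 pairs of interneuron genes 8 were. The 3 pairs not called were Th with Tbx21 (r = 0.692, permutation p = 0.0298, adjusted p = 0.055), Th with Dcx (r = 0.586, permutation p = 0.0756, adjusted p = 0.113) and Th with Synpr (r = 0.553, permutation p = 0.0973, adjusted p = 0.143). When the 2 farthest rats were left out of each pair, 24 pairs were called, and this does not remove the split within the set.

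Among the 20 rats below the gap few pairs of genes were called. The median r was 0.0166, the range was -0.666 to 0.952, and 5 pairs were called (3 with Spearman's rho). None of the 6 pairs of mitral genes was called, with r from -0.445 to 0.462. Tbx21 was 0 to 6.54 in these 20 rats (median 1.74), and a 0 allows up to 3 reads. Eomes had a median of 5.78 there, with 197 in 10RT43 and 73.2 in 12RT23. Pairs with Tbx21, and in most of these rats pairs with Eomes, therefore rest on a few reads per rat. Called or not, such pairs cannot decide whether the genes vary together below the gap. Without the 4 rats that stand apart, chosen after seeing the data, 6 pairs were called, 1 of them mitral, Doc2g with Tbx21 (r = 0.655, permutation p = 0.00314, adjusted p = 0.0087, rho = 0.705, permutation p = 0.00314, n = 16). Dcx and Synpr, both low in 10RT43, rose together (r = 0.952, permutation p = 2e-05, adjusted p = 0.00072, rho = 0.692, permutation p = 0.0009), and r was 0.595 without the 2 farthest rats, 0.754 without 10RT43 and 10RT46 and 0.78 without the 4 rats. Tshz1 fell as Cdhr1 rose (r = -0.553, permutation p = 0.0146, adjusted p = 0.0319, rho = -0.648, permutation p = 0.00254; r = -0.682 without the 2 farthest rats) and as Tbx21 rose (r = -0.493, permutation p = 0.0249, adjusted p = 0.0499, rho = -0.542, permutation p = 0.015; r = -0.534 without them). The other 2 pairs rested on the 2 farthest rats. Eomes with Synpr went from r = -0.666 (permutation p = 0.0167, adjusted p = 0.0354, rho = -0.283, permutation p = 0.228) to -0.104 without them, and Dcx with Pbx3 from r = -0.611 (permutation p = 0.0261, adjusted p = 0.0499, rho = -0.146, permutation p = 0.54) to -0.3, and neither was called without the 4 rats. Tbx21 with Synpr was called without 10RT43 and 10RT46 (r = -0.554, permutation p = 0.0118, adjusted p = 0.0243, rho = -0.531, permutation p = 0.0245; r = -0.486 without the 2 farthest rats) and without the 4 rats (r = -0.557, permutation p = 0.0174, adjusted p = 0.0347, rho = -0.555, permutation p = 0.0277). Tshz1 with Dcx was called without the 4 rats (r = 0.689, permutation p = 0.022, adjusted p = 0.0417, rho = 0.106, permutation p = 0.698), and r was -0.0978 once the 2 farthest were left out as well. The pairs of Tshz1 with Cdhr1 (r = -0.632) and with Tbx21 (r = -0.619) were called without the 4 rats too.

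Cdhr1 had intermediate levels in some rats with little Tbx21. It was 832 in 6AKO52, 730 in HIP rat 10RT54, 576 in AKO rat 6KAH98 and 539 in 10RT46, where Tbx21 was 6.07 or less. In 10RT46 the pineal gene Tph1, a tryptophan hydroxylase used in melatonin synthesis, was 19081, and Gch1, the first enzyme of the tetrahydrobiopterin cofactor used by Th, was 1879 against 83.7 or less in every other rat. Th itself was 34.9 there. Over the 20 rats below the gap, the genes ranking most like Cdhr1 by Spearman's rho were Rxrg (0.925), a retinoid X receptor, Ndst4 (0.908), a heparan sulfate enzyme, and Rftn1 (0.889), a lipid raft protein. Over all 30 rats they were Trh (0.937), Rftn1 (0.927) and Frzb (0.927), a secreted Wnt antagonist. These are descriptions chosen as the highest of all genes, over rats that share 2 sets.

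The genes most like the mean of the 4 mitral genes over 30 rats were Sncaip (rho = 0.923), the synuclein-binding protein synphilin, Otop2 (0.864), a proton channel, and Ms4a15 (0.858). Sncaip was also first without 10RT43 and 10RT46 (0.926), and 9 of the 15 highest genes were in both lists, 60% of each. For Th the closest gene was Scgn (0.886), for Dcx Plppr5 (0.887) and for Pbx3 Prss56 (0.839).

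No difference between genotypes was found in any of the 9 genes. The comparisons ask whether human amylin from the pancreas, or the lack of amylin, goes with a change in brain gene expression. In HIP vs. WT rats, 0 of 9 genes passed the unadjusted threshold of 0.05 (limma on log2(normalized count + 1), 10 rats per group), where 2.57% of 17085 tested genes did, and no gene of the whole table had an adjusted p-value under 0.05 (0%). In AKO vs. WT rats it was 0 of 9 again, against 9.34% of 17058 genes unadjusted and 0.0997% adjusted. In HIP vs. AKO rats it was 0 of 9, against 12.7% of 17092 genes unadjusted and 0.17% adjusted. A permutation test of each gene on its own also gave 0 of 9 in each comparison, with smallest p-values of 0.355, 0.299 and 0.374. The 3 comparisons share their groups and are not independent of one another.

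The smallest p-value in HIP vs. WT rats was that of Doc2g, 157.8 ± 182 vs. 291 ± 392.2 (mean ± SD, n = 10 per group), with a log2 fold change of -0.62 (SE 0.61, limma p = 0.320, adjusted p = 0.999). It was above the WT median in 3 of 10 HIP rats. In AKO vs. WT rats it was that of Cdhr1, 1574 ± 2283 vs. 1797 ± 3142, with a log2 fold change of 1.16 (SE 0.996, limma p = 0.259, adjusted p = 0.705). The mean count was lower in AKO rats while the mean log2 value was higher, and 9 of 10 AKO rats were above the WT median. In HIP vs. AKO rats it was Doc2g again, with a log2 fold change of -0.56 (SE 0.55, limma p = 0.321, adjusted p = 0.681).

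The spread between rats set wide limits on these differences. The median SE of the 9 genes was 0.61, 0.61 and 0.55 in the 3 comparisons, and over all tested genes it was 0.13, 0.15 and 0.14. The 95% interval of the log2 fold change of Tbx21 was -2.90 to 2.25 in HIP vs. WT rats, -2.12 to 2.61 in AKO vs. WT rats and -2.86 to 1.72 in HIP vs. AKO rats. The intervals of Tshz1, the narrowest in HIP vs. WT and AKO vs. WT rats, were -0.77 to 0.39 and -0.97 to 0.38. Synpr was narrowest in HIP vs. AKO rats, with -0.24 to 0.66. The median log2 fold change of the 9 genes was -0.17, -0.02 and -0.16, and that of all tested genes was 0.00 in each comparison. Without 10RT43 and 10RT46, and without the 4 rats that stand apart, the count was 0 of 9 in each comparison. Without the first 2, Cdhr1 in HIP vs. WT rats turned from 0.43 to -0.0786 (SE 1.04), and without the 4 it was 0.0637 (SE 1.09). Without AKO rat 6AKO35, 1 of 9 genes passed unadjusted in AKO vs. WT rats, Tshz1 (log2 fold change -0.53, limma p = 0.0489, adjusted p = 0.445).

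**Figure D4:**
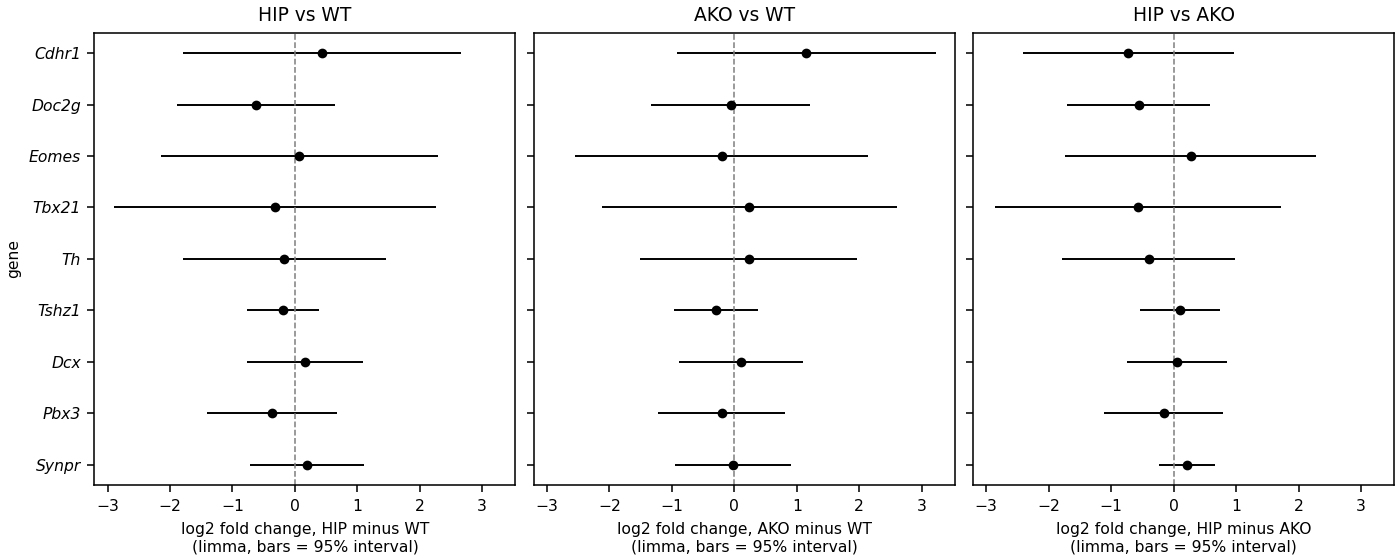
Log2 fold change of the 9 genes in HIP vs. WT, AKO vs. WT and HIP vs. AKO rats (points, limma on log2(normalized count + 1), 10 rats per group) with 95% intervals (bars). Every interval includes 0, and those of Cdhr1, Eomes and Tbx21 are the widest.

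The 6 lists of other bulb genes hold 59 genes (Tbr1 stands in 2 lists). By limma, 0 of them passed unadjusted in HIP vs. WT rats (2.57% of all genes), 3 in AKO vs. WT rats (9.34% of all genes) and 5 in HIP vs. AKO rats (12.7% of all genes), so no share was above that of all genes, and 0 passed after adjustment in any comparison. The 3 in AKO vs. WT rats were Lbhd2, Qdpr and Ngfr. Lbhd2, a mitral cell gene, had a log2 fold change of 1.31 (SE 0.62, limma p = 0.0446, adjusted p = 0.521). Qdpr, which recycles the cofactor of Th, had one of -0.46 (SE 0.16, limma p = 0.00831, adjusted p = 0.364), and Ngfr, a neurotrophin receptor of ensheathing glia and other cells, one of -1.30 (SE 0.36, limma p = 0.00140, adjusted p = 0.192). In HIP vs. AKO rats, Ngfr and Qdpr were higher and Gnal, Top2a and Nes lower (unadjusted). The lists' median log2 fold changes were between -0.26 (nerve) and 0.25 (immature neurons) in HIP vs. WT rats and between -0.21 (catecholamine) and 0.42 (immature neurons) in AKO vs. WT rats. Between HIP and AKO rats they were -0.63 (nerve) to 0.25 (catecholamine).

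The sample names hold a number after the letter S, whose meaning is not stated. It is called the library number here, a name that the sample annotation does not give. Of the 15 libraries with the higher numbers, 8 were of the 10 rats above the Tbx21 gap and 7 of the other 20, and of the 15 with the lower numbers, 2 and 13 were. This split was made after the numbers were seen and has no test. With the library number as a covariate, 0 of 9 genes passed unadjusted in every comparison. The part of the library number in the division was not tested.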

How the data were processed

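RNA of 30 rats was extracted with an RNeasy kit, and libraries from a SMARTER mRNA-Seq kit were sequenced on an Illumina HiSeq. The submitters' processing notes name Partek 10.0.22.0228, STAR 2.7.8a and Bowtie2. The authors mapped reads to rn7, quantified genes of Ensembl105 and scaled the read counts by DESeq2. What they deposited is therefore a signal, a normalized count that need not be whole. Their steps give whole reads for 83.0 to 87.1% of the values under 20 (tolerance 0.02 reads), so no count test was run, and the estimated reads per rat limit precision to about 1 read. Genotypes were taken from the sample annotation. The rats have no shared replicate numbers.

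Genotypes were compared with limma 3.58.1 in R 4.3.3 (eBayes with trend, two-sided) on log2(normalized count + 1), for genes whose mean over both groups was 1 or more, with Benjamini-Hochberg adjustment over all of them. The pseudocount understates changes of low genes. The fit was tested on simulated counts with 1 small spread for all genes. The 9 genes vary far more between rats, so that test does not show the power of the fit for them. Correlations and differences of single genes were tested with 100000 permutations in Python 3.11.15 (scipy 1.17.1). The genes, the 6 lists of bulb cell types and the 9 lists of other regions (cortex, striatum, cerebellum, pineal gland, choroid plexus, hippocampus, thalamus, hypothalamus, midbrain and hindbrain) were chosen with earlier results of these data known. Named are all 9 genes, list genes by smallest p-value or by the largest ratio of the highest to the median rat, and the genes of highest rank correlation. All others were named after their values were seen. The alternatives tried are given with the limits. The library number was taken from the sample names.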

Additional observations from a re-analysis of the deposited data

Results flagged for a closer look

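In 27 groups of 10 rats (9 genes, 3 genotypes), the highest or lowest rat stood apart from its nearest neighbour by more than the 95% critical value of Dixon's test in 4. Chance gives about 1 in 20, or 1.35. In AKO rats, 6AKO35 was high for Tshz1 (4324, the next rat 1138) and for Pbx3 (2783, the next rat 724). In WT rats, 10RT43 was low for Dcx (63.4, the next rat 297) and for Synpr (129, the next rat 1638). The same rat 6AKO35 also had the highest Eomes of all rats (523), and 10RT43 is the rat with cerebellar genes. No explanation was tested.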

How the results depend on the processing

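No paired analysis was possible because the rats carry no shared replicate numbers. Over 936 alternative values of the 27 fold changes, 837 kept their direction and side of the threshold and 99 turned in direction. None of the 27 was called, the smallest adjusted p-value under any alternative was 0.292, and the cause of the turns was not tested. Across genes, correlations within genotypes were not run, since each genotype holds 3 or 4 rats above the gap.

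With sample-quality weights, the HIP vs. WT log2 fold changes became 0.52 (Tbx21), 0.32 (Th), 0.0624 (Tshz1), 0.0703 (Pbx3) and -0.0294 (Synpr), and those of AKO vs. WT 0.31 (Doc2g), 0.84 (Eomes) and 0.13 (Pbx3). All genes called rose to 885 in HIP vs. WT unadjusted, 3930 unadjusted and 857 adjusted in AKO vs. WT, and 4289 and 1143 in HIP vs. AKO. With the library number as covariate, HIP vs. WT gave 0.67 (Tbx21), 0.27 (Th) and 0.0207 (Pbx3), and AKO vs. WT 0.0544 (Doc2g), 0.16 (Eomes) and 0.0227 (Synpr), with 31 genes adjusted. With the olfactory nerve gene mean as covariate, chosen after seeing the data, HIP vs. WT gave 0.32 (Tbx21) and 0.25 (Th), AKO vs. WT -0.0195 (Dcx), -0.12 (Tbx21) and -0.0520 (Th), and HIP vs. AKO 0.20 (Pbx3), 0.29 (Tbx21) and 0.20 (Th), with 51 genes adjusted. In that fit 1 of the 9 genes passed unadjusted in HIP vs. WT, Cdhr1 (limma p = 0.041). Without rats 10RT43 and 10RT46, HIP vs. WT gave -0.0786 (Cdhr1), -0.0231 (Dcx) and -0.13 (Synpr) with 817 genes unadjusted, AKO vs. WT -0.18 (Dcx), 0.14 (Eomes) and -0.0318 (Th), and HIP vs. AKO 70 genes adjusted. Without 12RT23 as well, chosen after seeing the data, Synpr in HIP vs. WT was -0.0858, and 44 genes were adjusted in HIP vs. AKO. Without 7AKO19 too, also chosen after seeing the data, HIP vs. WT gave -0.0858 (Synpr), AKO vs. WT 0.27 (Eomes) and -0.15 (Dcx), and 13 genes were adjusted in HIP vs. AKO. The largest moves of a value that kept its direction were Eomes in HIP vs. WT, from 0.07 to 1.34 with sample-quality weights (limma p = 0.166), Eomes in HIP vs. AKO, from 0.27 to 1.07 with the nerve covariate (limma p = 0.0577), and Eomes and Cdhr1 in HIP vs. WT, to 0.85 and from 0.43 to 1.16 with the library number. A pseudocount of 5 gave -0.0562 for Eomes in HIP vs. WT. With all 30 rats in 1 fit, 27 genes (AKO vs. WT) and 56 (HIP vs. AKO) were adjusted, against 17 and 29. The pairs called below the Tbx21 gap fell from 5 to 3 with a pseudocount of 0.1 and to 3 without the 2 farthest rats.

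Leaving out 1 rat at a time, HIP vs. WT ranged over -0.32 to 0.55 (Eomes), -0.0521 to 0.94 (Cdhr1), -0.13 to 0.37 (Dcx), -0.24 to 0.32 (Synpr), -0.82 to 0.23 (Tbx21) and -0.46 to 0.26 (Th). AKO vs. WT ranged over -0.45 to 0.11 (Synpr), -0.72 to 0.28 (Eomes), -0.12 to 0.67 (Th), -0.18 to 0.32 (Dcx), -0.26 to 0.80 (Tbx21), -0.34 to 0.26 (Doc2g) and -0.50 to 0.0233 (Pbx3). HIP vs. AKO ranged over -0.11 to 0.31 (Dcx), -0.11 to 0.79 (Eomes), -0.0434 to 0.34 (Tshz1) and -0.38 to 0.13 (Pbx3). Genes called were 309 to 779 unadjusted in HIP vs. WT (779 without 10RT46), 10 to 39 adjusted in AKO vs. WT (10 without 10RT38 or 7AKO19, 39 without 4KAH27) and 17 to 70 adjusted in HIP vs. AKO (17 without 10RT53 or 6AKO52, 70 without 10RT46). Of the 9 genes, 0 to 1 passed unadjusted in AKO vs. WT.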

Other observations

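Among the 28 genes whose 10 highest rats were the 10 highest of Tbx21, several are in none of the lists. Ms4a15, a membrane protein, was 37.03 to 325 in those rats and 15.99 or less in the other 20. Cpa6, a carboxypeptidase, was 10.3 to 219 against 4.85 or less, and Hvcn1, a voltage-gated proton channel, 151.6 to 1027 against 114 or less. Gng4, a G protein subunit, was 283 to 1577 against 219 or less, and Sp7, a zinc finger factor, 89.7 to 654 against 81.5 or less. These genes were named after their values were seen and have no test.

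In the 2 rats with cerebellar genes, 10RT43 and 12RT23, Lhx1, Uncx and Barhl2 from the list of other mitral and tufted cell genes were high beside Eomes. Lhx1 was 794 and 98.7 against 5.82 or less in every other rat, Uncx was 610 and 68.5 against 1.97 or less, and Barhl2 was 994 and 145.1 against 22.5 or less. Tbx21 and Cdhr1 were at 2.39 and 15.5 in 10RT43. In the 10 rats above the Tbx21 gap, Lhx1, Uncx and Barhl2 reached only 5.77, 1.97 and 20.3. Barhl2 still had a median of 14.2 there, against 2.87 in the 20 rats below the gap. Lhx5 of the same list, at 197 in 10RT43, had medians of 4.86 and 0. Lhx1 (medians 1.38 and 0.408) and Uncx (0 and 0) were too low in most rats to show whether they follow the mitral genes. The part of cerebellar RNA in their values was not tested. In the 9 lists of other regions, 1 of 63 genes passed unadjusted in HIP vs. WT rats (limma), where 2.57% of all genes did, 3 of 60 in AKO vs. WT rats, where 9.34% did, and 7 of 64 in HIP vs. AKO rats, where 12.7% did. After adjustment 0 passed in each.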
